A study of Arabidopsis thaliana with 7 samples.

Results

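JMJD5 (AT3G20810) and CHE (AT5G08330, also called TCP21) are a pair of Arabidopsis thaliana genes known as evening-phased parts of the circadian clock. Their CCA1 binding sites are described here from 2 lists of ChIP-seq peaks. A peak was assigned to a gene when its nearest promoter, or the gene of its annotation, was JMJD5 or CHE, so the sites were chosen by the peak calls, and their presence is a description and not a finding. This gave 3 of the 1433 peaks called in continuous light (LL) and 3 of the 1607 peaks called in light-dark cycles (LD). They form 3 sites, 1 at JMJD5 and 2 at CHE, each called in both lists. By the same assignment, 3.82% of the 37887 nuclear genes of the RefSeq table had an LL peak, 4.24% had an LD peak and 2.93% had both.

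The plants were 14-day-old whole seedlings of the WS-2 ecotype in which CCA1 was fused to green fluorescent protein (GFP) and driven by the CCA1 promoter, and chromatin was precipitated with anti-GFP. All had grown with 12 h of light and 12 h of darkness a day. The LL group (3 libraries) was then kept in continuous light, whereas the LD group (2 libraries) stayed in the cycles, and both were harvested at zeitgeber time (ZT) 2. The number of transgenic lines and whether they still carried an untagged CCA1 were not given in the labels. An LL library of ZT14 and a library of input DNA were not analysed by themselves here. Whether either of them served as the control of the authors' peak calls was not given. Whole seedlings mix all cell types, so a peak with few tags may reflect weak binding in many cells or strong binding in few, and these cannot be told apart.

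CCA1 is a MYB-related transcription factor that accumulates around dawn and, with its close relative LHY, represses genes expressed in the evening, many of them through a promoter motif called the evening element. JMJD5, also known as JMJ30, is a Jumonji-C (JmjC) domain protein with histone demethylase activity, whose loss shortens the circadian period of seedlings. CHE is a TCP-family transcription factor that binds the CCA1 promoter, represses it and interacts with TOC1, so that CCA1 and CHE are thought to repress each other. The files hold DNA measurements, and the evening phase of JMJD5 and CHE was therefore not checked. The annotation names AT3G20810 as jumonji-C domain-containing protein 30 and AT5G08330 as transcription factor TCP21. The RefSeq table lists AT5G08330 under the symbol TCP11 with CHE and TCP21 as synonyms, and the locus identifier was followed here.

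CCA1 sat on the transcription start site (TSS) of JMJD5, but well upstream of the TSS of CHE. The JMJD5 peak lay on chromosome 3 from 7275570 to 7275728 in LL and from 7275607 to 7275731 in LD (TAIR10). It was placed in the promoter-TSS category, with its centre 25 bp upstream of the TSS in LL and 5 bp upstream in LD. Relative to that TSS it reached from 104 bp upstream to 54 bp downstream in LL, and from 67 bp upstream to 57 bp downstream in LD, so the called interval spanned the start of transcription in both regimes. Centres within 25 bp of a TSS were uncommon, with 86 of all LL peaks (6.0%) and 113 of all LD peaks (7.03%).

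The nearer CHE site lay on chromosome 5 from 2679749 to 2679907 in LL and from 2679765 to 2679889 in LD. Its centre was 916 bp upstream of the CHE TSS in LL and 917 bp upstream in LD, in the promoter-TSS category. The farther CHE site lay from 2678892 to 2679050 in LL and from 2678876 to 2679000 in LD, with its centre 1773 bp and 1806 bp upstream of the CHE TSS. The annotation put this farther site at the transcription termination site of AT5G08320, the gene that precedes CHE in the RefSeq order, while its nearest promoter was that of CHE. It therefore belongs to CHE by distance to the promoter alone. The 2 CHE peaks were 857 bp apart in LL and 889 bp apart in LD, measured between centres. Of the 985 genes nearest to a peak shared by both lists, 65 (6.6%) had at least 2 such peaks, as CHE did.

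**Figure D1:**
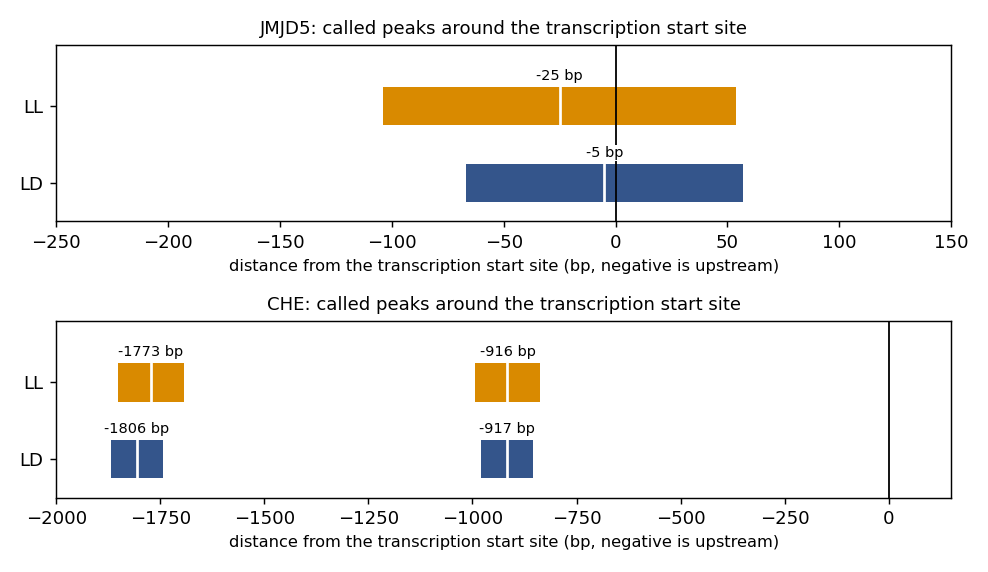
Called peaks at JMJD5 (upper panel) and CHE (lower panel) on an axis of distance from the TSS in bp, with LL above LD; bars span the called peak, white lines mark the peak centre, printed above each bar, and the black line marks the TSS. The JMJD5 peaks cross the TSS, whereas the CHE peaks are centred 916 to 1806 bp upstream.

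The called peaks of all 3 sites overlapped between the regimes, and most closely at the nearer CHE site. The nearer CHE peaks had centres only 1 bp apart, and the LD peak lay wholly within the LL peak (125 bp of overlap). Within each list the called peaks of the 3 sites had the same width, so the overlap follows from the offset of the centres. An offset of 1 bp or less was found in 98 of the 1069 peaks shared between the lists (9.17%). The JMJD5 centres were 20 bp apart with 122 bp of overlap, and the farther CHE centres were 33 bp apart with 109 bp of overlap. The median offset of shared peaks was 15 bp, 58.8% of them had an offset below 20 bp and 78.2% one below 33 bp, so the farther CHE offset was larger than most. JMJD5 stood alone in its surroundings, with the next peak 101624 bp away in LL and 101615 bp away in LD, both at AT3G21055. Over all peaks the median distance to the next one was 16420 bp in LL, against 15966 bp in LD. The nearest peaks outside CHE belonged to AT5G08260 in LL, 20013 bp from the farther site, and to AT5G08280 in LD, 13210 bp from it.

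JMJD5 carried one of the strongest CCA1 peaks of both lists. By tags and score, the nearer CHE site stood higher among the LD peaks than among the LL peaks. Each list pools the libraries of its regime, so no value here has a spread between replicates and no test between regimes was possible. The intervals are exact 95% Poisson intervals of the tag count and cover counting error only. The JMJD5 peak held 183 tags in LL (interval 157 to 212) and 176 tags in LD (151 to 204). The nearer CHE peak held 54 tags in LL (40.6 to 70.5) and 134 tags in LD (112 to 159). The farther CHE peak held 39 tags in LL (27.7 to 53.3) and 71 tags in LD (55.5 to 89.6). Tag numbers at JMJD5 were thus alike in both lists, while both CHE sites had fewer tags in LL. Raw tags do not compare the regimes, because the authors' normalisation gave a tag 7.48 units in LL and 3.44 units in LD, and the median peak held 26 tags in LL and 46 tags in LD.

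**Figure D2:**
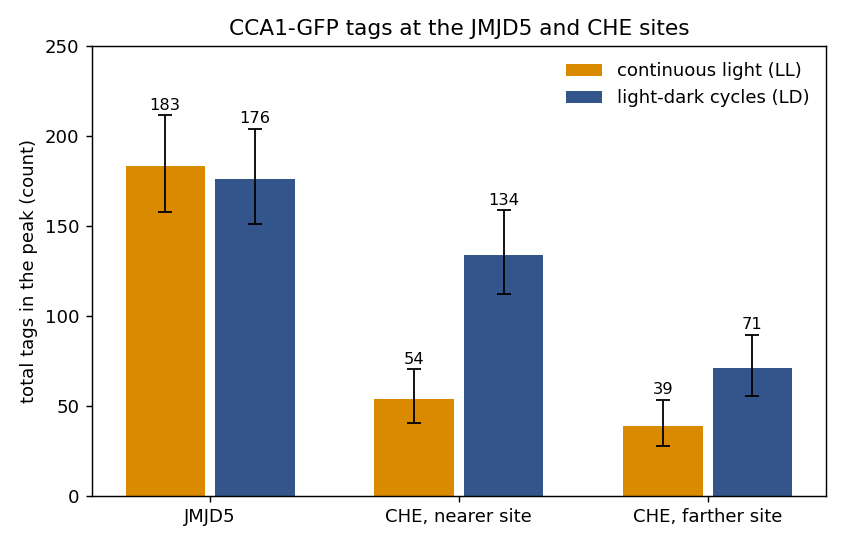
Total tags (count) in the called peak at each of the 3 sites, LL left and LD right, with exact 95% Poisson intervals as error bars. JMJD5 has 183 and 176 tags in LL and LD, and the CHE sites have 54 and 39 tags in LL against 134 and 71 tags in LD.

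Within the LL list the JMJD5 peak had the authors' score of 140, which put it at rank 4 and above 99.8% of the other peaks. In LD its score was 178, at rank 12 and above 99.3% of the others. The nearer CHE peak scored 51 in LL, at rank 159 and above 88.1% of the others, whereas in LD its score of 134 put it at rank 38 and above 97.4%. By fold over control the gap was smaller, with the nearer CHE peak above 93.8% in LL (rank 90) and 97.1% in LD (rank 48). The farther CHE peak kept about the same place, with a score of 37 at rank 333 in LL (above 75.8%) and a score of 71 at rank 319 in LD (above 79.3%). Ranks near each other are not distinct at this depth. Besides the JMJD5 peak, 8 LL peaks and 22 LD peaks had tag counts inside its Poisson interval. For the nearer CHE peak these were 215 LL peaks and 65 LD peaks, and for the farther one 483 and 379.

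By tags and by score the order of the sites was JMJD5, nearer CHE, farther CHE in both regimes, but their spacing differed. By fold over control this order held in LL, whereas in LD the nearer CHE site (52.5-fold, rank 48) came before JMJD5 (43.6-fold, rank 74). The LD folds rest on few scaled control tags, 2.6 at the nearer CHE site and 4.0 at JMJD5. No interval of the fold was computed, so this order may not be distinct. In LL the JMJD5 peak had 3.39 times the tags of the nearer CHE peak (exact conditional 95% interval 2.49 to 4.68), and in LD 1.31 times (1.04 to 1.66). The ratio of these ratios was 2.58 (1.74 to 3.84), an interval for counting error in the pooled libraries, not for the spread between plants. Against the farther CHE peak, JMJD5 had 4.69 times the tags in LL (3.31 to 6.81) and 2.48 times in LD (1.87 to 3.31). Between the CHE sites, the nearer peak had 1.38 times the tags of the farther one in LL, with an interval of 0.900 to 2.15 that includes equality. In LD it had 1.89 times the tags (1.41 to 2.55). The ratio of these ratios between the CHE sites was 0.734 (0.431 to 1.25), so within counting error it was not distinct from equality. With 1 pooled list per regime, a difference between the CHE sites in their response to the regime could not be tested.

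Normalised tags rest on the same counts, so they place the sites relative to the other shared sites but are no separate support. The JMJD5 peak had 1370 normalised tags in LL and 606 in LD (authors' values, tags scaled by 1 constant per list). The nearer CHE peak had 404 in LL and 461 in LD, and the farther one had 292 in LL and 245 in LD. Since the median LL over LD ratio of the 1069 shared peaks was 1.25, each ratio was divided by that median. The relative ratio was 1.81 at JMJD5 (counting interval 1.46 to 2.24), higher than at 96.7% of the other shared peaks. At the nearer CHE site it was 0.701 (0.501 to 0.968), higher than at 13.3% of them. At the farther CHE site it was 0.955 (0.629 to 1.43), close to the middle of all shared peaks. Relative ratios of 1.5 or more were found in 10.6% of shared peaks, JMJD5 among them, and ratios lower by 1.5-fold or more in 9.92%, with neither CHE site among them when all shared peaks are used.

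**Figure D3:**
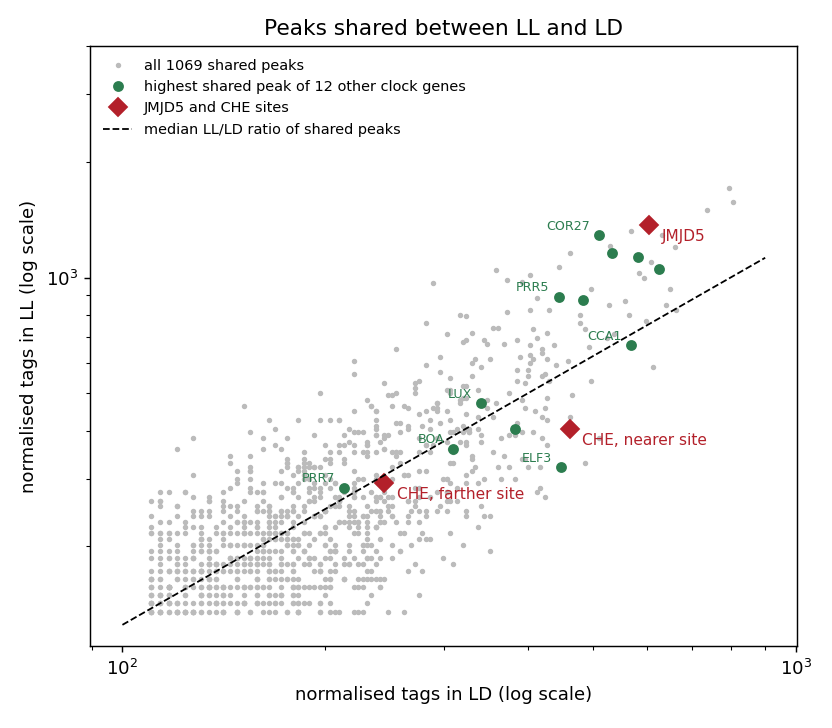
Normalised tags of the 1069 shared peaks in LL (vertical) against LD (horizontal), both on log scales; diamonds mark the JMJD5 and CHE sites, green points the highest shared peak of 12 other clock genes (some labelled), and the dashed line the median LL/LD ratio of 1.25. JMJD5 lies above the line and the nearer CHE site below it.

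The strength of a peak moved with this ratio. Among the 269 shared peaks of the top 25% by normalised tags, which hold JMJD5 and the nearer CHE site, the median relative ratio was 1.19. Set against those peaks alone, JMJD5 had a relative ratio of 1.51, higher than at 92.9% of the others, and the nearer CHE site had 0.587, higher than at 7.46% and past the 1.5-fold mark. With the authors' score in place of tags the JMJD5 ratio was 1.44, below the 1.5-fold mark, while that of the nearer CHE site was 0.698. The score per tag of the JMJD5 peak was 0.765 in LL and 1.01 in LD, whereas that of the nearer CHE peak was 0.944 in LL and 1.00 in LD. The JMJD5 value in LL was low, above that of 4.26% of other LL peaks. In the top 25% of shared peaks the median score per tag in LL was 0.923. What part of the JMJD5 ratio follows from peak strength was not tested.

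The sites were chosen as called peaks, and every listed peak was at least 4.01-fold over control in LL and 4.08-fold in LD. Their being above control is therefore a description and not a finding. The authors' deposited table gave the JMJD5 peak a fold over control of 66.8 in LL and 43.6 in LD (their p-values 6.87e-258 and 5.14e-216), against list medians of 13.6 and 14.8. The same table gave the nearer CHE peak 39.4-fold in LL and 52.5-fold in LD, and the farther one 23.5-fold and 27.8-fold. The p-values of the authors' deposited table come from pooled tags and not from replicates. Scaled control tags at JMJD5 were 2.7 in LL and 4.0 in LD, above those at 76.2% and 67.7% of other peaks. At the CHE sites they were 1.4 and 1.7 in LL and 2.6 at both sites in LD, below the list medians of 2.1 in LL and 3.2 in LD.

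The CHE sites differed in how sharply their tags were placed. The focus ratio, the share of a peak's tags that lie on the expected strand on either side of its centre, was 0.919 in LL and 0.966 in LD at the nearer CHE site. These values stood at rank 69 among the LL peaks and at rank 9 among the LD peaks. At the farther CHE site the focus ratio was 0.776 in LL and 0.743 in LD, a little below the list medians of 0.792 and 0.762. At JMJD5 it was 0.884 in LL and 0.789 in LD. No interval of the focus ratio was computed. The LL values of the CHE sites rest on 54 and 39 tags, so their difference in LL may not be distinct. The GC content of the 500 bp around the peak was 36.9% in LL and 37.9% in LD at JMJD5, above that of 79.5% and 81.8% of other peaks. It was 32.1% in both lists at the nearer CHE site and 32.9% and 33.5% at the farther one, close to the medians of 32.7% and 33.3%.

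**Figure D4:**
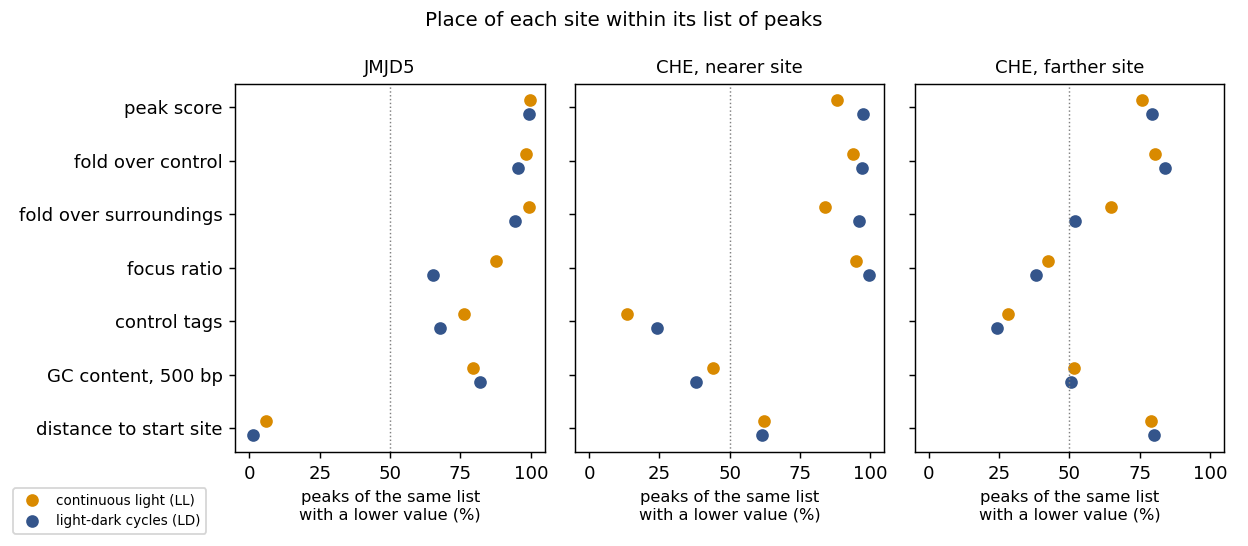
Share of the other peaks of the same list (%) with a lower value, for 7 measures at each site, LL in orange and LD in blue; the dotted line marks 50%. The nearer CHE site is high in focus ratio in both lists, and JMJD5 is high in score and fold and low in distance to the TSS.

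Other clock genes had CCA1 peaks as well. Besides JMJD5 and CHE, 8 of 14 evening clock genes of the list had a peak in LL and 7 of 14 in LD, and 4 of 5 pseudo-response regulator genes had one in each list, against 3.82% of all nuclear genes in LL and 4.24% in LD. The highest shared peaks of 12 other clock genes had relative LL over LD ratios from 0.575 to 2.02, with a median of 1.23. The median of all shared peaks is 1 by construction, but that of the 269 strongest by normalised tags was 1.19. The clock-gene median was thus close to that of strong shared peaks in general. Whether clock genes differ from other peaks of like strength was not tested. COR27, a cold- and clock-regulated gene, had the highest ratio at 2.02 (interval 1.61 to 2.53), and JMJD5 came second. TOC1, a repressor of CCA1 and partner of CHE, followed with 1.74 (1.38 to 2.19). PRR5, a pseudo-response regulator, had 1.60 (1.24 to 2.07), and the blue-light receptor gene FKF1 had 1.55 (1.24 to 1.95). The intervals of these 4 genes and that of JMJD5 overlap, so their order is not distinct.

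Among the highest shared peaks of these genes, ELF3, a subunit of the evening complex, was lowest with a ratio of 0.575 (0.397 to 0.817), next to the nearer CHE site with 0.701. ELF3 scored 40 in LL and 132 in LD, much like the scores of 51 and 134 of the nearer CHE site. PRR9 had 0.846 (0.599 to 1.18) and BOA had 0.927 (0.639 to 1.33). CCA1 itself had 0.938 (0.716 to 1.22), PRR7 had 1.07 (0.692 to 1.62) and LUX had 1.11 (0.793 to 1.53). COR28 had 1.35 (1.07 to 1.69) and GI had 1.45 (1.13 to 1.87). A second shared GI peak, whose nearest promoter is that of GI itself, had a ratio of 0.443 (0.276 to 0.687), with scores of 29 in LL and 103 in LD. It lay below the nearer CHE site and ELF3 and on the other side of the median from the higher GI peak, so the ratio of a gene depends on which of its peaks is taken. The highest LUX, PRR9 and GI peaks are those that the annotation column ties to these genes while their nearest promoter is another gene's, as is the LL peak at PRR7. LKP2 had an LL peak alone and LHY an LD peak alone, so neither has a ratio.

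**Figure D5:**
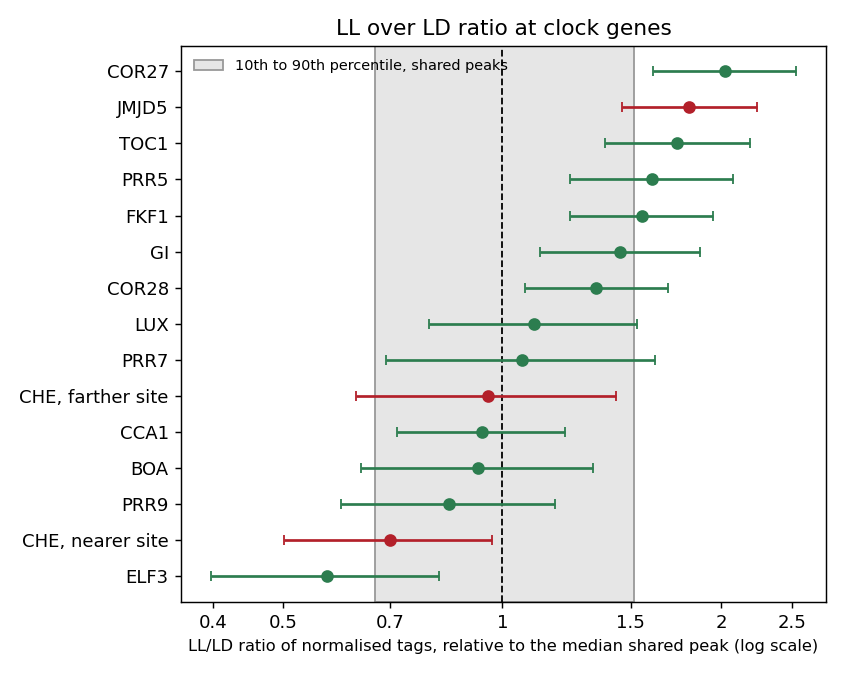
LL over LD ratio of normalised tags, divided by the median of all shared peaks (log scale), for the highest shared peak of 14 clock genes and for the farther CHE site; bars are exact conditional 95% intervals (counting error only), the grey band spans the 10th to 90th percentile of shared peaks (0.669 to 1.51) and the dashed line marks the median. JMJD5 (1.81) is second from the top and the nearer CHE site (0.701) second from the bottom; a second GI peak, not drawn, had 0.443.

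Within its own gene family JMJD5 had by far the highest peak. Of the 20 other JmjC-domain genes, which encode histone demethylases and related proteins, 2 (10%) had an LL peak and 1 (5%) had an LD peak, a share in LD close to the 4.24% of all nuclear genes. JMJ17 had scores of 28 in LL and 53 in LD, at a site that the annotation puts at its transcription termination site and whose nearest promoter is that of AT1G63480. JMJ29 had a score of 24 in LL, 657 bp upstream of its TSS, and none was called in LD. Of the 23 other TCP genes, 6 (26.1%) had a peak in LL and 6 in LD, against 3.82% and 4.24% of all nuclear genes, and 4 of them (TCP2, TCP4, TCP13 and TCP14) had peaks in both. The highest was TCP14, a class I TCP factor like CHE, with top scores of 40 in LL, 2456 bp downstream of its TSS, and 56 in LD, 109 bp upstream. TCP4, to which the peaks are tied by the annotation column alone, scored 31 and 49, TCP13 scored 29 and 46, and TCP2 scored 18 and 43 in LL and LD. TCP6 (12) and TCP24 (17) were called in LL alone, and TCP7 (35) and TCP8 (37) in LD alone. The nearer CHE site, with scores of 51 in LL and 134 in LD, thus stood above every peak of the other TCP genes in both lists. The farther one, with 37 and 71, stood below the TCP14 peak in LL. The 41 tags of that TCP14 peak lie inside the Poisson intervals of both CHE sites in LL (40.6 to 70.5 and 27.7 to 53.3), so their LL order is not distinct.

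The genes closest to JMJD5 and CHE in the plane of LL and LD score percentiles were sought among 983 other genes with a shared peak. Closest to JMJD5 was FKF1 (scores 130 in LL and 172 in LD), at a distance of 0.286 percentage points. The desaturase gene SLD1 (AT3G61580; 126 and 179) and the calcium pump gene ACA8 (AT5G57110; 126 and 194) followed at 0.424 and 0.561 points. Closest to CHE was AT4G17810, whose scores of 51 and 134 equal those of the nearer CHE site, with the peak 973 bp upstream of the TSS in LL and 958 bp in LD. AT5G46720 (51 and 149) and the light-harvesting gene LHB1B1 (AT2G34430; 49 and 126) followed at 0.872 and 1.56 points. The annotation column ties the LL peak of LHB1B1 to the promoter of AT2G34420, and LHB1B1 is its nearest promoter. The likeness rests on 2 lists and says only that these peaks hold similar places in them.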

How the data were processed

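Peak lists of anti-GFP ChIP-seq were used, 1 per light regime. The submitters' processing notes name HOMER 4.7, Bowtie2 2.2.1, Trimmomatic 0.33 and CASAVA 1.8, with TAIR10. Per the file headers, each list is a top set from an IDR (irreproducible discovery rate) step on a regime's combined libraries, annotated with HOMER in windows of 500 bp. The control library, duplicate removal and the IDR threshold: not given in the sources used here. Per the file headers, the authors deposited for each peak the count of tags, normalised tags and scaled control tags (signal), a score, ratios (fold over control, over the surroundings, and clonal), p-values, and as fractions the focus ratio and GC content.

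LL and LD peaks were called shared at an overlap of at least 1 bp, each LL peak being paired with the LD peak of largest overlap. A percentage of other peaks counts those with a lower value. Counts carry exact 95% Poisson intervals and ratios exact conditional intervals, covering counting error only, since PCR duplicates are not independent molecules. With 1 pooled list per regime no test was made. The pairing was tested on simulated data, in which LL peaks were paired with slightly shifted copies of themselves. Such pairs overlap by construction, so this checked the code and not the pairing of the real lists. Python 3.11.15, pandas 2.3.3 and scipy 1.17.1 were used. Gene names came from RefSeq (TAIR10.1), of which no coordinates were used, and all 66 list genes matched. The genes, lists and measures were chosen with earlier results of these data known. Named were all list genes with a peak and the 3 genes most alike per gene; among the latter, SLD1 and LHB1B1 are RefSeq symbols. Unused per-sample columns numbered 0.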

Additional observations from a re-analysis of the deposited data

How the results depend on the processing

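No paired analysis was possible because each list pools its libraries, which also kept single libraries from being left out. The 3 peaks of each list, and all 3 shared sites, remained with the nearest promoter alone, in the upper 50% of each list, with 50% overlap of both peaks and with centres within 500 bp; with the annotation column alone 2 peaks per list were left, because the farther CHE site is tied to AT5G08320 there. Ranked by fold over control, JMJD5 stood above 98.4% of LL peaks (against 99.8% by score) and 95.5% of LD peaks (against 99.3%). Both values lay outside the range given by the counting error of the JMJD5 tags. That range leaves out the counting error of the scaled control tags, which were few (2.7 in LL and 4.0 in LD). With the score in place of normalised tags the relative LL over LD ratio of JMJD5 was 1.44 against 1.81, and the cause was not tested. The relative ratio of the nearer CHE site passed the 1.5-fold mark against the top 25% of shared peaks (0.587 against 0.701), but not in the upper 50% of both lists (0.667). By fold over control, for which no interval was computed, that site ranked above JMJD5 in LD. The other alternatives, and the top 25% of shared peaks by normalised tags, which was chosen after seeing the data, left each value within its counting interval. A planned count of motifs in the promoters was not run, since no sequence was used here. With 39 to 183 tags per LL peak, differences smaller than about the widths of the intervals given cannot be resolved. The spread between libraries is not known, so differences larger than these widths are not thereby established.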
